A study of Homo sapiens with 9 samples.

Results

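The 8 genes described here encode activation-linked transcription factors and were followed in a human B-cell line carrying either isoform of the receptor TACI. They are NR4A1, NR4A2 and NR4A3 of the NR4A orphan nuclear receptors, and KLF2, KLF4, KLF6, KLF10 and KLF13 of the Krüppel-like factors. They were taken by symbol from the 57500 Ensembl genes counted in every library, and all 8 were found in all 9 libraries. The libraries came from BJAB, a human B-cell line whose genotype the labels give as Burkitt lymphoma tumor. Cells with the long isoform (TACI long, 3 libraries) and cells with the short isoform (TACI short, 3 libraries) were set against BJAB cells without either (control, 3 libraries). The titles describe the isoforms as stably transfected and the design text as transduced. All cells were untreated. The vector, its promoter and the number of clones are not given in the sources used here. Sorted cells gave polyadenylated RNA, which was made into libraries with Nextera XT, an unstranded kit. The labels do not say whether the replicates of a group are separate cultures, and p-values therefore reflect the spread of these libraries alone, which could be technical.

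NR4A factors are nuclear receptors without an established natural ligand, and their genes are switched on within minutes by antigen receptor, calcium and cyclic AMP signals. In mouse B cells Nr4a1 RNA and protein follow the strength of antigen receptor signalling, and the factors restrain part of the response to antigen. Krüppel-like factors bind GC-rich and CACCC sequences through zinc fingers. KLF2 and KLF4 are known for holding lymphocytes in a resting state. KLF6 and KLF10 are early-response genes, KLF10 being induced by TGF-beta, and KLF13 is known as an activator of the chemokine gene CCL5 in T cells.

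The introduced gene was examined first. TNFRSF13B, which encodes TACI, stood at 691, 704 and 738 CPM (the count of a gene over the library total, in parts per 1000000) in TACI long, at 2964, 2965 and 2655 CPM in TACI short, and at 28.8, 15.2 and 14.6 CPM in control. The transgene RNA was thus more abundant in TACI short than in TACI long, and isoform and amount cannot be told apart in any comparison of the groups. Library totals ran from 40322136 to 50079203 counts. TACI short replicates 2 and 3 stood apart, with counts for 32882 and 32209 genes, against 24307 to 25938 genes in the other 7 libraries, and results that rest on them are given with and without them. The B-cell markers CD79A, CD79B, MS4A1, PAX5, CD22 and CD74 were detected in every library. CD79A, a signalling chain of the B-cell antigen receptor, had 948 to 987 CPM in TACI long, 733 to 764 CPM in TACI short and 938 to 1019 CPM in control. In bulk RNA, fewer cells with a transcript and less of it per cell cannot be told apart.

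The 8 genes spanned more than 3 orders of magnitude in level. Per kilobase of exon, KLF13 was the most abundant of them, at 24.1 ± 0.417 CPM per kb in TACI long, 24.0 ± 0.854 in TACI short and 23.0 ± 0.631 in control (SD, n = 3 each). KLF10 followed with 8.70 ± 0.244 CPM per kb in TACI long, 14.8 ± 0.305 in TACI short and 13.2 ± 0.195 in control. NR4A1 came next, at 4.04 ± 0.107 CPM per kb in TACI long, 6.73 ± 0.467 in TACI short and 5.601 ± 0.0848 in control. KLF6 had 1.42 ± 0.142 CPM per kb in TACI long, 2.77 ± 0.411 in TACI short and 2.396 ± 0.214 in control. These 4 kept their order in each group by more than the spread of the libraries. Below 1 CPM per kb the order was less certain. NR4A3 and KLF4 had 0.0866 ± 0.0185 and 0.104 ± 0.0300 CPM per kb in TACI long and 0.172 ± 0.0289 and 0.371 ± 0.290 in TACI short, pairs that did not differ beyond their spread. In control NR4A3 was above KLF4, at 0.163 ± 0.0116 against 0.0742 ± 0.0413 CPM per kb. KLF2 was near the detection limit in all groups and NR4A2 in TACI long and control, with NR4A2 at 0.0475 ± 0.0203 CPM per kb in TACI short.

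**Figure D1:**
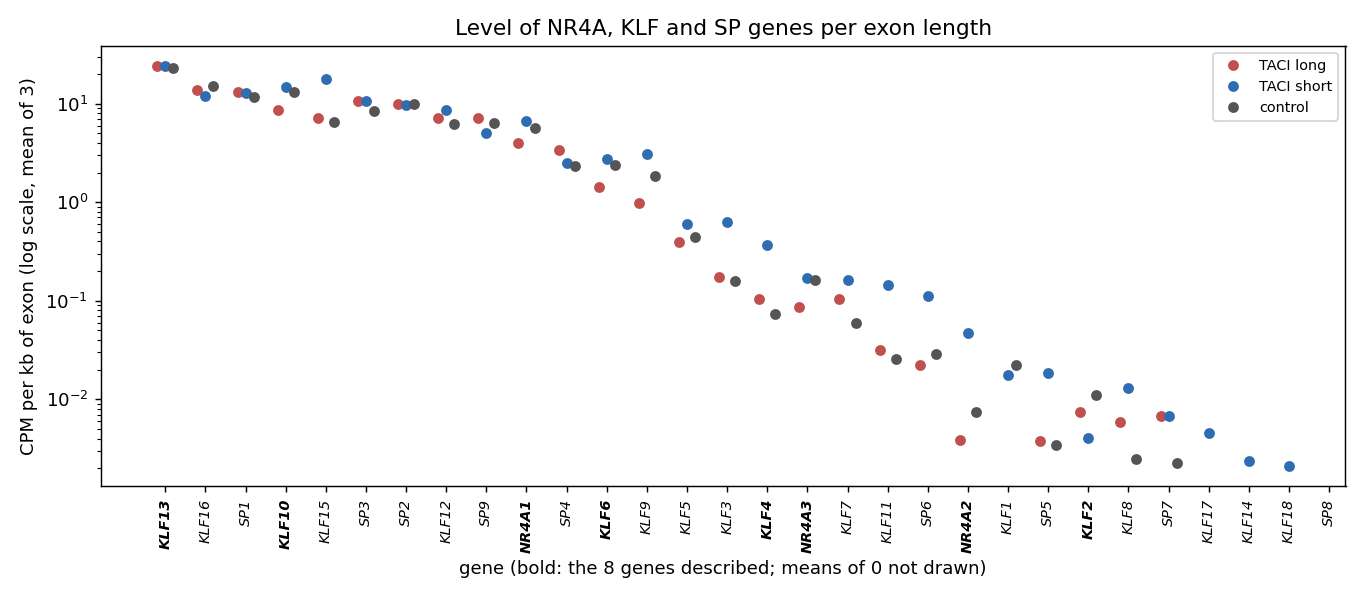
Mean level per group (log scale, CPM per kilobase of exon, mean of 3 libraries) of the NR4A, KLF and SP genes, ordered by level, with the 8 genes described in bold; means of 0 are not drawn. KLF13 leads at 24.1, 24.0 and 23.0 CPM per kb in TACI long, TACI short and control, and NR4A2 and KLF2 lie under 0.05 CPM per kb in every group.

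Among the other Krüppel-like and SP factors, which share the zinc-finger fold and bind similar GC-rich sites, all had lower mean levels per kilobase than KLF13 in each group. KLF16 had 13.7 CPM per kb in TACI long, 11.99 in TACI short and 14.96 in control, and SP1, a general activator at GC boxes, had 13.2, 12.7 and 11.6. KLF15 had 7.16 CPM per kb in TACI long, 17.6 in TACI short and 6.45 in control.

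Promoter sequences were available from the RefSeq table (GRCh38.p14, 250 bases before to 50 after the start) for 6 of the genes: NR4A1, NR4A3, KLF2, KLF4, KLF6 and KLF13. Windows are shown for NR4A3 and KLF6, which fell together in TACI long, for KLF13, which did not, and for KLF2, which had almost no RNA. They hold the bases upstream of both the RefSeq start and the first exon of the counted gene, written 5′ to 3′ on the gene's strand. Capitals mark matches on either strand to the TGACG core of the cyclic AMP response element (CRE), to the GC box GGGCGG bound by KLF and SP factors, and to the MEF2 motif (CTA, any 4 bases, TAG); neighbouring GC boxes may share bases.
NR4A3, chr9:99821635-99821854, plus strand: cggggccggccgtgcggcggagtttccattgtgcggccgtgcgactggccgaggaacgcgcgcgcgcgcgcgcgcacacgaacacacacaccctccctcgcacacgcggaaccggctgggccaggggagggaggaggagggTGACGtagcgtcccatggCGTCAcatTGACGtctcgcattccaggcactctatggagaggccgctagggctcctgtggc
KLF6, chr10:3785282-3785459, minus strand: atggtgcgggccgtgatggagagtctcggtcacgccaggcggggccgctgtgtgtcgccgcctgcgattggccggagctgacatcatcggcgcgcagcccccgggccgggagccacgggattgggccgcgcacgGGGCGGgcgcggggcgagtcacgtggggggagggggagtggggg
KLF13, chr15:31326585-31326834, plus strand: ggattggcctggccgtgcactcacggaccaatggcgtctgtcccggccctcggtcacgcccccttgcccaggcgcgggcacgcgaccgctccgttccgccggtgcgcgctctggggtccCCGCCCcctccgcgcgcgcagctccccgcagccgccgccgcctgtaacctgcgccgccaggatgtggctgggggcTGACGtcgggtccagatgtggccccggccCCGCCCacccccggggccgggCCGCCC
KLF2, chr19:16324576-16324816, plus strand: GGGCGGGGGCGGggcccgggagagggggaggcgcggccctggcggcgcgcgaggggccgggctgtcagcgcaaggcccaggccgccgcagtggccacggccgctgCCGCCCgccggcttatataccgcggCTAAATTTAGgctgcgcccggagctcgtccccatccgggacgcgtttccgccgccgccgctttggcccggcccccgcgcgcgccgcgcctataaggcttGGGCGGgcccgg

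In its 300-base window NR4A3 held 4 matches to the CRE core TGACG, 3 of them in the stretch shown, KLF4 held 2 and KLF13 1, and 24.6% of the 35116 RefSeq windows of that length hold at least 1. The full CRE, TGACGTCA, was in none of the 6 genes' windows and in 1.85% of all windows. GC boxes were found in a window of all 6 genes, with 6 in KLF2, 4 in KLF4, 3 in KLF13, 2 in KLF6 and 1 each in NR4A3 and the second of the NR4A1 windows, while 45.0% of all windows hold 1 or more. The MEF2 motif was found in KLF2 alone among the 6, against 2.73% of all windows. No match was found to the NR4A monomer site AAAGGTCA (in 1.22% of all windows), the CACCC box CCACACCC (3.28%), the AP-1 site TGANTCA (7.71%), the kappaB site of GGG, any 2 bases and TTTCC (1.91%) or the CArG box (1.29%). A match describes letters in the window and not a bound site.

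TACI long was set against control in untreated cells. NR4A1, NR4A3, KLF6 and KLF10 fell in TACI long, by 1.39-fold to 1.87-fold, and KLF4 and KLF13 did not pass the test. In edgeR's quasi-likelihood test with Benjamini-Hochberg adjustment over 16672 genes, 0 of the 6 genes with enough counts were higher and 4 were lower, where 51.1% of all genes were called, 25.2% higher and 25.9% lower. The median log2 fold change of the 6 was -0.53, beside -0.0029 over all genes tested.

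NR4A1 (ENSG00000123358, hg38 chr12:52022832-52059507, plus strand), the receptor known as Nur77, had 28.6, 30.2 and 29.5 CPM in TACI long, 52.0, 49.9 and 45.4 CPM in TACI short and 41.5, 40.3 and 40.7 CPM in control. In CPM, which is scaled by library totals alone, the 3 groups did not overlap, with TACI long lowest and TACI short highest. The fit also used TMM factors, of 1.03 to 1.096 in TACI short and 0.962 to 0.979 in control. These bring TACI short and control closer, and whether those 2 groups overlap depends on the scaling. The mean in TACI long was 29.4 ± 0.783 CPM against 40.9 ± 0.618 CPM in control (SD, n = 3 each), a log2 fold change of -0.47 ± 0.05 (SE; edgeR quasi-likelihood test, adjusted p = 1.25e-07). A long intergenic RNA on the opposite strand, AC025259.3, overlaps NR4A1 and had 0 to 3 counts per library.

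NR4A3 (ENSG00000119508, chr9:99821855-99866891, plus strand), also called NOR-1, was far scarcer. Its level was 0.496, 0.680 and 0.464 CPM in TACI long, 0.900, 1.265 and 1.098 CPM in TACI short and 1.07, 0.941 and 1.07 CPM in control. TACI long lay below both other groups without overlap, while TACI short and control overlapped. It fell by 0.90 ± 0.24 on the log2 scale in TACI long against control (SE; edgeR quasi-likelihood test, adjusted p = 0.00289), on 72 counts over the TACI long libraries and 140 over control. The ratio of those pooled levels was 0.535 (exact 95% interval 0.397 to 0.715, for counting error alone; without molecular identifiers, reads from the same molecule are counted separately).

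KLF6 (ENSG00000067082, chr10:3775996-3785281, minus strand), an early-response activator at GC boxes, had 9.15, 9.30 and 7.72 CPM in TACI long, 14.2, 19.2 and 17.6 CPM in TACI short and 13.3, 14.99 and 15.9 CPM in control. Again TACI long lay below the other groups, which overlapped each other. KLF6 was 1.68-fold lower in TACI long than in control (log2 fold change -0.75 ± 0.10 SE; edgeR quasi-likelihood test, adjusted p = 4.2e-06).

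KLF10 (ENSG00000155090), the TGF-beta-inducible early gene TIEG1, had 35.5, 33.7 and 35.3 CPM in TACI long, 57.8, 60.0 and 59.7 CPM in TACI short and 51.8, 52.9 and 53.3 CPM in control. The groups did not overlap in CPM, and libraries of a group lay within a few CPM of each other. As for NR4A1, whether TACI short and control overlap depends on the scaling. KLF10 was 1.51-fold lower in TACI long than in control (log2 fold change -0.59 ± 0.05 SE; edgeR quasi-likelihood test, adjusted p = 1.28e-10).

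KLF13 (ENSG00000169926, chr15:31326855-31435665, plus strand) hardly moved: it had 223, 229 and 230 CPM in TACI long, 228, 233 and 217 CPM in TACI short and 210.2, 222 and 217 CPM in control. TACI short overlapped both other groups, while TACI long lay just above control. The difference between TACI long and control was 0.07 on the log2 scale, with an interval of 2 SE from -0.01 to 0.15 (edgeR quasi-likelihood test, adjusted p = 0.154). With only the libraries of TACI long and control in the fit, or with TACI short replicate 1 as its only library, it passed at 0.076 and 0.081 (adjusted p = 0.0373 and 0.0296, same test). The pseudogene UBE2CP4 inside KLF13 had 0 to 1 count per library. Of the 6 genes tested, 5 had TACI long and control groups that did not overlap, as did 60.7% of all genes tested.

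**Figure D2:**
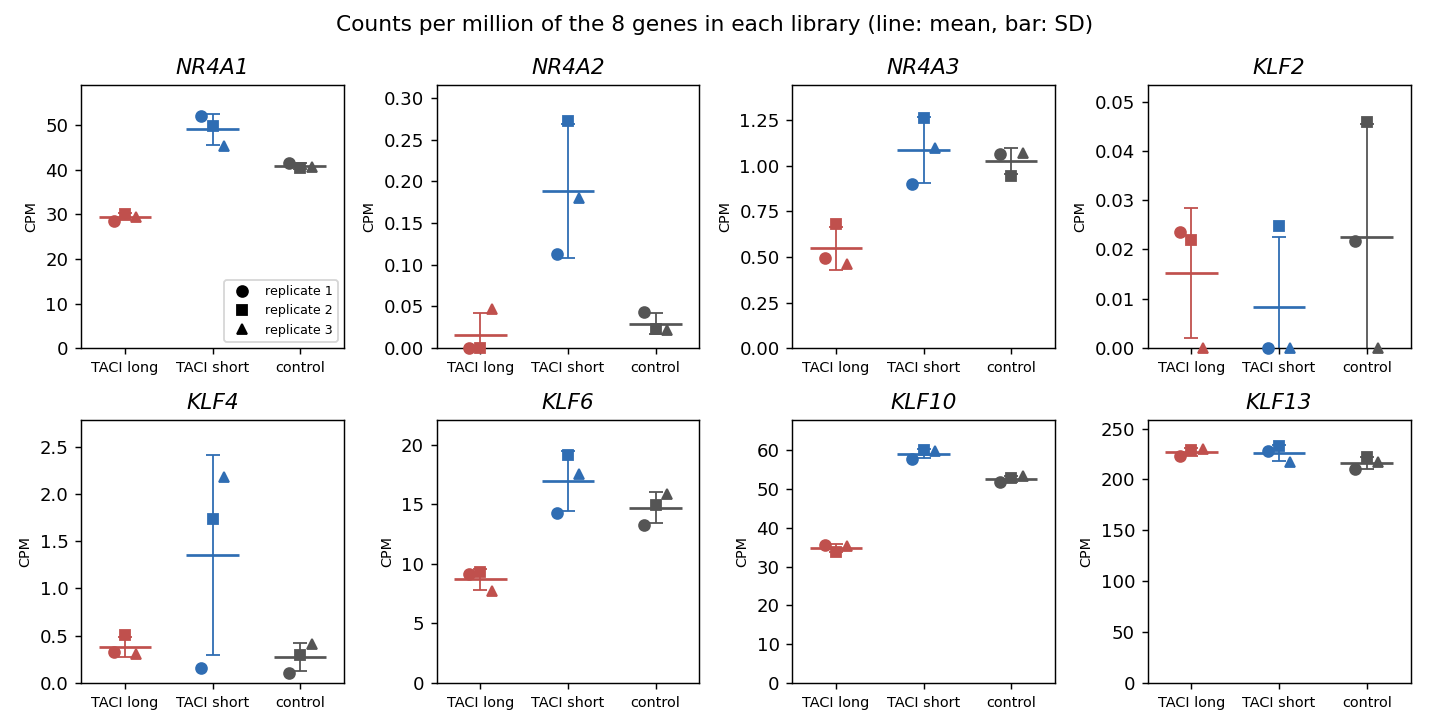
CPM (count over the library total) of the 8 genes in each of the 9 libraries, with the group mean (line), SD (bar) and replicate number (marker shape); each panel has its own linear axis from 0. NR4A1, NR4A3, KLF6 and KLF10 are lowest in the 3 TACI long libraries, and KLF4 is high in TACI short replicates 2 and 3 alone, at 1.74 and 2.18 CPM.

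The same fit set TACI short against control, where 62.6% of all genes were called, 31.5% higher and 31.1% lower. Of the 6 genes, 1 was higher and 0 were lower, with a median log2 fold change of 0.06 beside 0.03 over all genes tested. The gene that passed was NR4A1, at 49.1 ± 3.41 CPM in TACI short and 40.9 ± 0.618 CPM in control (SD, n = 3 each), a fitted 1.099-fold rise after TMM scaling (log2 fold change 0.14 ± 0.05 SE; edgeR quasi-likelihood test, adjusted p = 0.0296). With library totals alone, the scale of the printed CPM, it was 0.26 (adjusted p = 0.000147), and with upper-quartile factors 0.22 (adjusted p = 0.000502). The call was lost in 8 of 20 alternatives. The adjusted p was 0.0549 with DESeq2 and 0.114 in edgeR without the filter on low counts. With single libraries left out it was 0.0694, 0.195 and 0.153 without control replicates 1, 2 and 3, 0.0926 and 0.0978 without TACI long replicates 1 and 3, and 0.248 without TACI short replicate 1, where the log2 fold change was 0.065.

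NR4A3, KLF6, KLF10 and KLF13 did not pass the test between TACI short and control. The intervals of 2 SE around their log2 fold changes ran from -0.50 to 0.40 for NR4A3, from -0.11 to 0.26 for KLF6, from -0.05 to 0.13 for KLF10 and from -0.15 to 0.01 for KLF13. Such small differences depended on the scaling. Against library totals alone the median gene shifted by 0.16 on the log2 scale in TACI short against control and by 0.18 in TACI short against TACI long. Under that scaling KLF10 was 0.17 higher in TACI short than in control (edgeR quasi-likelihood test, adjusted p = 0.000788), hardly more than the median gene, and KLF13 was 0.063 higher in place of 0.067 lower. Among the genes called, the share higher in TACI short than in control was then 64.6%, beside 50.4% with the TMM factors used here, and in TACI short against TACI long 62.4% beside 51.2%. Groups did not overlap in CPM for 2 of the 6 genes, NR4A1 and KLF10, and for 66.4% of all genes tested.

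TACI short and TACI long were set against each other directly, where 68.8% of all genes were called, 35.2% higher and 33.6% lower in TACI short. NR4A1, NR4A3, KLF6 and KLF10 were higher in TACI short than in TACI long, by 1.52-fold to 1.81-fold, and KLF13 was slightly lower. Thus 4 of the 6 genes tested were higher and 1 lower. Their median log2 fold change was 0.73, beside 0.05 over all genes tested. All 4 had TACI short libraries above every TACI long library, and 71.6% of all genes tested had groups that did not overlap. These values share the TACI long libraries with the first comparison and are not independent of it.

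The log2 fold change in TACI short against TACI long was 0.61 ± 0.05 for NR4A1 (SE; adjusted p = 7.68e-10), 0.85 ± 0.24 for NR4A3 (adjusted p = 0.00307), 0.83 ± 0.09 for KLF6 (adjusted p = 6.51e-07) and 0.63 ± 0.05 for KLF10 (adjusted p = 1.5e-11), all in the edgeR quasi-likelihood test. NR4A3 had 146 counts over the TACI short libraries and 72 over the TACI long libraries, and with TACI short replicate 1 as its only library its log2 fold change was 0.61 (adjusted p = 0.123). Wherever TACI short has a single library, the spread comes from the other groups and that library is assumed to vary like them. KLF13 differed by -0.14 ± 0.04 (SE; edgeR quasi-likelihood test, adjusted p = 0.00454), at 226 ± 8.04 CPM in TACI short and 227 ± 3.92 CPM in TACI long (SD, n = 3 each). That call was lost with upper-quartile factors (-0.049, adjusted p = 0.166) and with library totals alone (-0.0071, adjusted p = 0.852).

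**Figure D3:**
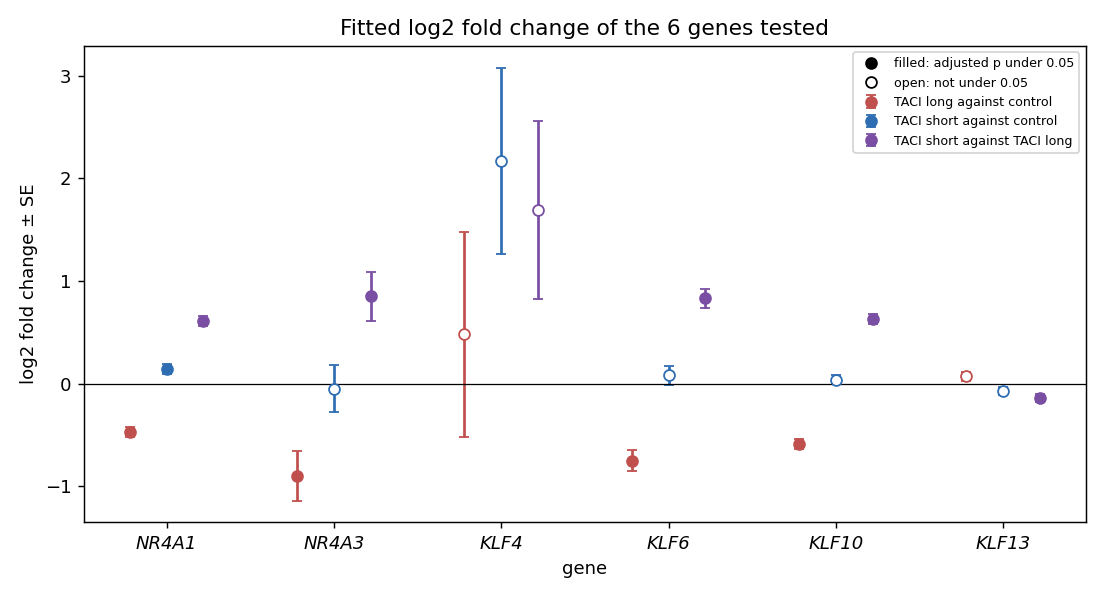
Fitted log2 fold change with its SE (bars) of the 6 genes tested, in TACI long against control, TACI short against control and TACI short against TACI long; filled points passed an adjusted p of 0.05. NR4A1, NR4A3, KLF6 and KLF10 lie between -0.90 and -0.47 in TACI long against control, and KLF4 has the widest bars, with a log2 fold change of 2.17 ± 0.91 in TACI short against control.

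KLF4 (ENSG00000136826, chr9:107484852-107490482, minus strand), which is also a factor of monocyte differentiation, varied most between libraries of a group, relative to its mean, among the 6 genes tested. It had 0.331, 0.504 and 0.301 CPM in TACI long, 0.158, 1.74 and 2.18 CPM in TACI short and 0.109, 0.298 and 0.407 CPM in control. These values rest on 14, 23 and 13 counts in TACI long, 7, 70 and 109 in TACI short and 5, 13 and 19 in control. TACI short replicates 2 and 3 lay above all other libraries and TACI short replicate 1 lay within the control range. The log2 fold change was 2.17 ± 0.91 in TACI short against control (SE; adjusted p = 0.0775), 1.69 ± 0.87 in TACI short against TACI long (adjusted p = 0.128) and 0.48 ± 1.00 in TACI long against control (adjusted p = 0.743), all in the edgeR quasi-likelihood test. Without TACI short replicate 1 the first of these was 2.69 (adjusted p = 2.93e-09) and the second 2.20 (adjusted p = 4.66e-08). With that replicate as the only TACI short library they were -0.86 (adjusted p = 0.312) and -1.36 (adjusted p = 0.0817), with the spread taken from the other groups. DESeq2 called both, at 2.18 (adjusted p = 0.00239) and 1.69 (adjusted p = 0.0166). With the replicate number as a block, KLF4 passed between TACI short and control at 2.02 (edgeR, adjusted p = 0.0253).

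Markers of myeloid cells moved with KLF4. Summed over 12 genes (LYZ, CD14, ITGAM, TYROBP, CSF1R, FCER1G, S100A8, S100A9, CD68, MPO, MARCO and CD163), they reached 28.7, 128 and 124 CPM in TACI short, against 29.6, 22.8 and 15.6 CPM in TACI long and 11.7, 22.2 and 22.4 CPM in control. The libraries high in KLF4 were the libraries high in the sum of these markers. CSF1R made up the largest part of the sum in TACI short, at 20.3, 57.8 and 56.7 CPM. It had 5.61 to 11.4 CPM in TACI long and 3.85 to 8.72 CPM in control. Unlike KLF4, CSF1R was thus above the other groups in TACI short replicate 1 too. S100A8 was at 0 in every library, MPO and MARCO were at 0 in 6 and 7 of the 9, and LYZ stayed between 0.391 and 2.32 CPM. Of the 8 myeloid markers tested, 4 were higher and 0 lower in TACI short than in control (median log2 fold change 1.91). Of all genes tested, 31.5% were higher and 31.1% lower. Without TACI short replicate 1, 7 of the markers were higher and 0 lower (median 2.43), beside 6022 and 5566 of all 17420 genes. With that replicate as the only TACI short library, the marker median was -0.18. The part of the myeloid markers in the KLF4 values was not tested. T and NK cell markers summed to 11.3 to 12.8 CPM in TACI short, 15.8 to 16.2 CPM in TACI long and 14.6 to 15.7 CPM in control. Epithelial and fibroblast markers summed to 80.7 to 89.0, 113 to 120 and 98.0 to 100.2 CPM in those groups, with EPCAM making up most of the sum. The fibroblast markers in that list were high in TACI short replicates 2 and 3: COL1A1 had 3.24, 10.99 and 10.2 CPM in TACI short, against 1.53 to 2.55 CPM in TACI long and 1.5 to 2.61 CPM in control. COL1A2 had 0.653, 3.99 and 4.11 CPM in TACI short, against 0.510 to 0.993 CPM in TACI long and 0.913 to 1.44 CPM in control. Their part in the KLF4 values was not tested either.

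**Figure D4:**
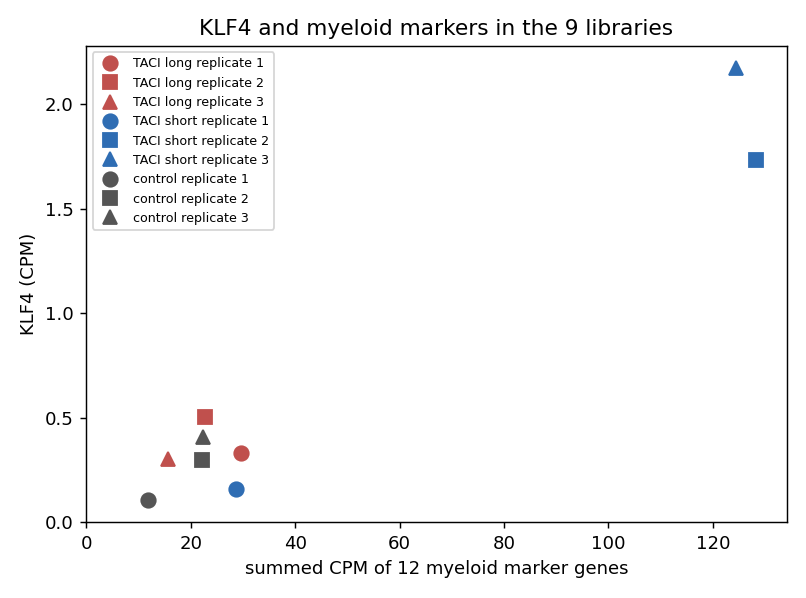
KLF4 (CPM) against the summed CPM of 12 myeloid markers in the 9 libraries; colour gives the group and shape the replicate. TACI short replicates 2 and 3 lie apart, at 128 and 124 summed CPM and 1.74 and 2.18 CPM of KLF4, and TACI short replicate 1 lies with the other libraries.

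NR4A2 (ENSG00000153234, chr2:156324432-156342348, minus strand), known as Nurr1, was nearly silent and did not pass the filter on low counts. It had 0, 0 and 2 counts in TACI long, 5, 11 and 9 in TACI short and 2, 1 and 1 in control. Every TACI short library lay above every other library. The pooled level in TACI short was 6.31 times that in control (exact 95% interval 2.18 to 25) and 12.1 times that in TACI long (3.03 to 106), from 25, 4 and 2 counts. In TACI long against control, with 2 and 4 counts, the ratio was 0.52 (0.047 to 3.63). In a fit without the filter on low counts, NR4A2 passed in TACI short against control (log2 fold change 2.41, edgeR adjusted p = 0.0195) and against TACI long (3.24, edgeR adjusted p = 0.00318). The median log2 fold change over the 41009 genes of that fit was itself 0.495 and 0.632 in these comparisons.

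KLF2 (ENSG00000127528, chr19:16324817-16327874, plus strand), the quiescence factor with the GC-box-rich window shown above, had 1, 1 and 0 counts in TACI long, 0, 1 and 0 in TACI short and 1, 2 and 0 in control. All groups were at or under 3 counts, a limit equal to 0.0229 CPM in TACI long, 0.0222 in TACI short and 0.022 in control, so no fold is given. Its processed pseudogene KLF2P2 had 9 to 47 counts per library, more than KLF2 itself, and reads could be split between them; the pseudogenes KLF2P1, KLF2P3, KLF2P4 and KLF4P1 had 0 to 2. Within the NR4A family, NR4A1 held nearly all counts: 98.1% in TACI long (97.6 to 98.5, exact Clopper-Pearson 95% interval for counting error alone on pooled counts), 97.5% in TACI short (97.1 to 97.8) and 97.5% in control (97.0 to 97.9).

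Lists of genes related to these factors were counted next, beside the shares of all genes tested: 25.2% higher and 25.9% lower in TACI long against control, 31.5% and 31.1% in TACI short against control, and 35.2% and 33.6% in TACI short against TACI long. In the EGR, FOS and JUN list of immediate early genes, induced by many of the same signals as the NR4A genes, 0 of 17 tested were higher and 12 lower in TACI long than in control (median log2 fold change -0.77). In turn, 14 were higher and 0 lower in TACI short than in TACI long (median 1.53). Without TACI short replicate 1, 17 were higher and 0 lower than in TACI long (median 1.49). With that replicate as the only TACI short library, the median against TACI long was 0.75. EGR1 averaged 35.2 ± 2.73 CPM in TACI long and 839 ± 26.7 CPM in control (SD, n = 3 each; log2 fold change -4.57 ± 0.06 SE, edgeR adjusted p = 1.73e-23). In TACI short against control the list split, with 5 higher and 7 lower (median 0.13), EGR1 falling to 454 ± 19.9 CPM in TACI short (log2 fold change -1.02 ± 0.05 SE, edgeR adjusted p = 1.16e-13). Without TACI short replicate 1 there were 8 higher and 7 lower, and with it as the only TACI short library 3 higher and 7 lower. NR4A1, NR4A3, KLF6 and KLF10 thus fell in TACI long, as did 12 of the 17 immediate early genes, while EGR1 and FOS, but none of these 4, were also called lower in TACI short than in control; the difference between genes was not tested. FOS averaged 13.9 ± 0.875 CPM in TACI short and 34.8 ± 1.26 CPM in control.

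Of 22 other KLF and SP genes, 13 were tested: 6 were higher and 2 lower in TACI long than in control (median log2 fold change 0.15), 6 higher and 3 lower in TACI short than in control (0.31), and 5 higher and 6 lower in TACI short than in TACI long (0.13). Of all genes tested, 51.1%, 62.6% and 68.8% were called in these comparisons. Without control replicate 2, 5 of the list were called in TACI long against control, in place of 8. With TACI short replicate 1 as its only library, the list medians in TACI short were 0.2 against control and -0.14 against TACI long. KLF9, a thyroid hormone and glucocorticoid target, followed the direction of NR4A1: it had 5.06 ± 0.472 CPM in TACI long, 15.8 ± 2.36 CPM in TACI short and 9.55 ± 0.248 CPM in control. It fell in TACI long (log2 fold change -0.91 ± 0.09 SE, edgeR adjusted p = 1.19e-08) and rose in TACI short (0.59 ± 0.09 SE, edgeR adjusted p = 2.29e-06). KLF15 rose in TACI short alone among the comparisons with control, to 50.1 ± 3.64 CPM in TACI short against 18.4 ± 1.26 CPM in control (1.32 ± 0.07 SE, edgeR adjusted p = 4e-11). The ubiquitous activators SP1 and SP3 rose in TACI long, by 0.20 and 0.32 on the log2 scale, and SP4 rose by 0.55. SP3 also rose in TACI short, by 0.19. KLF16 fell in both lines, by 0.13 in TACI long and by 0.45 in TACI short. KLF3 and KLF11, chosen after their values were seen, shared the pattern of KLF4: KLF3 had 0.630, 5.58 and 5.57 CPM and KLF11 0.113, 1.04 and 0.839 CPM in TACI short replicates 1, 2 and 3.

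The upstream list held 26 tested genes of calcium, MEF2, CREB and ERK5 signalling, routes that induce NR4A genes and KLF2. In TACI long against control 9 were higher and 10 lower (median log2 fold change -0.08), in TACI short against control 12 were higher and 7 lower (0.14), and in TACI short against TACI long again 12 and 7 (0.23). Of all genes tested, 51.1%, 62.6% and 68.8% were called in these comparisons. With TACI short replicate 1 as its only library, the list medians in TACI short were 0.13 against control and 0.05 against TACI long. CRTC2, the calcium-regulated coactivator of CREB, had 28.5 ± 0.791 CPM in TACI long and 43.7 ± 1.09 CPM in control and fell by 0.61 ± 0.05 on the log2 scale (edgeR adjusted p = 6.8e-10). CREB1 rose by 0.48 ± 0.05 (edgeR adjusted p = 7.05e-09). In TACI short, the calcineurin subunit gene PPP3CA rose to 49.4 ± 2.82 CPM against 21.0 ± 1.27 CPM in control, and NFATC2 to 59.7 ± 4.17 CPM against 27.7 ± 1.62 CPM (edgeR adjusted p = 1.88e-14 and 2.71e-12). SRF, which drives EGR and FOS genes, fell to 111 ± 0.754 CPM in TACI short against 175 ± 4.45 CPM in control (edgeR adjusted p = 1.97e-13). In TACI long, SRF had 165 ± 3.965 CPM and did not pass against control (log2 fold change -0.09 ± 0.04 SE, edgeR adjusted p = 0.093). Other calcineurin and NFAT genes, named after their values were seen, fell in TACI short against control: PPP3CB by 0.37, PPP3R1 by 0.24 and NFATC1 by 0.44 on the log2 scale. MEF2C, a factor known to activate KLF2 and NR4A1 and named after its values were seen, was well expressed, with 231 to 243 CPM in TACI long, 207 to 217 CPM in TACI short and 191 to 196 CPM in control. Of the retinoid X receptors, which pair with NR4A1 and NR4A2, RXRB passed in edgeR and RXRA did not. RXRB was 0.11 ± 0.05 higher in TACI long than in control (edgeR adjusted p = 0.0464) and 0.14 ± 0.05 lower in TACI short than in control (edgeR adjusted p = 0.0133). The first call was lost in 7 of 19 alternatives, namely without the filter on low counts and without any single control or TACI long library (adjusted p = 0.0644 to 0.24). The second was lost in 4 of 20, namely with upper-quartile factors (adjusted p = 0.211), with library totals alone (0.885), without TACI short replicate 3 (0.0764) and with TACI short replicate 1 as its only library (0.235). RXRA, chosen after its values were seen, had 0.630, 5.88 and 6.17 CPM in TACI short replicates 1, 2 and 3, as KLF4 did.

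KLF2 itself had almost no counts, but quiescence and trafficking genes linked to it and to FOXO factors were expressed. Of 15 tested, 12 were higher and 1 lower in TACI short than in control (median log2 fold change 0.51), 3 higher and 6 lower in TACI long than in control (-0.12), and 9 higher and 1 lower in TACI short than in TACI long (0.58). Of all genes tested, 31.5% were higher and 31.1% lower in TACI short than in control. The gene that was lower in TACI short was FOXO1 itself, with 117 ± 2.15 CPM in TACI long, 60.6 ± 1.41 CPM in TACI short and 73.9 ± 3.62 CPM in control (log2 fold change 0.66 in TACI long and -0.41 in TACI short against control). With TACI short replicate 1 as its only library, 9 were higher and 2 lower in TACI short than in control. CCR7, the receptor that brings lymphocytes to the T zone, had 0.332 ± 0.150 CPM in TACI long, 29.2 ± 0.948 CPM in TACI short and 3.17 ± 0.0028 CPM in control. It fell in TACI long (log2 fold change -3.23 ± 0.16 SE, edgeR adjusted p = 7.24e-13) and rose in TACI short (3.07 ± 0.10 SE, edgeR adjusted p = 9.54e-16). The cell-cycle inhibitor gene CDKN1B moved likewise, with 13.7 ± 0.461 CPM in TACI long, 56.6 ± 0.339 CPM in TACI short and 27.2 ± 0.596 CPM in control. CXCR4 differed from both, rising by 0.97 ± 0.06 in TACI long and by 1.42 ± 0.06 in TACI short on the log2 scale. S1PR1, an established KLF2 target in lymphocytes that was named after its values were seen, had 4 counts over the TACI long libraries, 12 over TACI short and 2 over control.

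Of the TGF-beta pathway, which induces KLF10, 13 genes were tested. In TACI long against control 6 were higher and 3 lower (median log2 fold change 0.02), in TACI short against control 7 were higher and 4 lower (0.32), and in TACI short against TACI long 6 were higher and 5 lower (0.11). Of all genes tested, 51.1%, 62.6% and 68.8% were called in these comparisons. With TACI short replicate 1 as its only library, the list medians in TACI short were 0.01 against control and 0.21 against TACI long. Without that replicate they were 0.37 and 0.16, with 14 genes tested. The ligand gene TGFB1 had 127 ± 0.515 CPM in TACI long and 228 ± 2.93 CPM in control and fell by 0.85 ± 0.04 on the log2 scale (edgeR adjusted p = 4.68e-14). Its receptor gene TGFBR1 rose by 0.69 ± 0.06 (edgeR adjusted p = 1.2e-09). TGIF1, a repressor of SMAD transcription, fell to 0.846 ± 0.0573 CPM in TACI long against 3.58 ± 0.329 CPM in control.

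The list of genes known to be restrained by NR4A factors in mouse B cells has 6 members. In TACI long against control 1 was higher and 2 lower, in TACI short against control 2 were higher and 1 lower, and in TACI short against TACI long 2 were higher and 1 lower. All 6 were tested, and of all genes tested 51.1%, 62.6% and 68.8% were called in these comparisons. Against control, TACI short had 4 higher and 1 lower without its replicate 1, and 1 higher and 1 lower with that replicate as its only library. BATF had 0.283 ± 0.0638 CPM in TACI long, 1.29 ± 0.222 CPM in TACI short and 0.748 ± 0.114 CPM in control, falling in TACI long (log2 fold change -1.39 ± 0.28 SE, edgeR adjusted p = 0.000188) and rising in TACI short (0.65 ± 0.24 SE, edgeR adjusted p = 0.0225). MYC fell in both lines, to 186 ± 6.89 CPM in TACI long and 218 ± 4.40 CPM in TACI short, against 245 ± 6.2 CPM in control. The adhesion gene ICAM1 rose to 80.8 ± 12.8 CPM in TACI short, against 9.34 ± 0.884 CPM in control, and the chemokine gene CCL3, named after its values were seen, had 1.26, 18.0 and 16.0 CPM in TACI short replicates 1, 2 and 3.

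**Figure D5:**
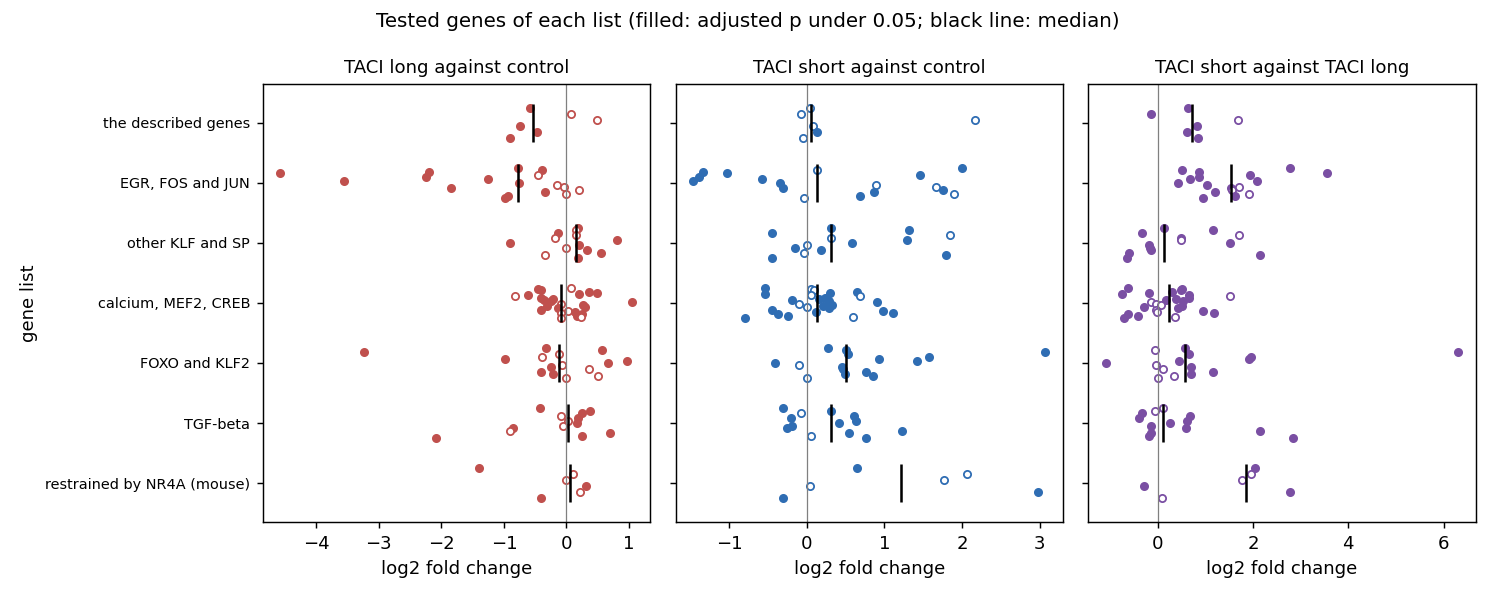
Log2 fold change of each tested gene of the lists in TACI long against control, TACI short against control and TACI short against TACI long; filled points passed an adjusted p of 0.05 and black lines are medians. The immediate early list has medians of -0.77, 0.13 and 1.53 in the 3 comparisons, and the 6 genes described have -0.53, 0.06 and 0.73. With TACI short replicate 1 as its only library, which is not drawn, the immediate early median against TACI long is 0.75.

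The genes whose pattern over the 9 libraries was most like each factor were ranked by Pearson's r of log2(CPM + 1) among 8761 well-expressed protein-coding genes. The libraries share 3 groups, so high values follow from group differences alone and no p is given. NR4A1 was most like PBX2, DVL1 and MAST2 (r = 0.996 for each), and KLF10 most like PIK3C2B (0.998), CYTIP and SLC38A2 (0.997 each). NR4A3 was most like ATP1B1 (0.982), TTC17 (0.972) and PLXNC1 (0.970), and KLF6 most like MLLT10 (0.981), ZYX (0.976) and TRAF3IP2 (0.971). For KLF13, whose groups differed little, the leading values were lower, at 0.961 for SNX30, 0.959 for RBAK and 0.956 for MPRIP. KLF4 was most like PLAUR (0.982), VIM (0.982) and LPL (0.981), and these, like KLF4, had their highest group mean in TACI short. PLAUR averaged 27.4 CPM in TACI short, against 7.53 CPM in TACI long and 6.19 CPM in control. KLF4 itself was high in TACI short replicates 2 and 3 alone, so these means need not hold for replicate 1. Values of the 3 genes in single libraries are not given here.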

How the data were processed

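The 9 libraries form 3 groups of 3. The deposited files hold raw counts per gene, which the authors made with FastQC, STAR 2.4.0h, HTSeq and build hg38, per the submitters' processing notes; the annotation, strand setting and filters behind them are not given in the sources used here. Symbols and positions came from GENCODE release 29 (56898 of 57500 gene IDs). CPM is the count over the library total, and CPM per kb divides it by the exon length in the files. Genes kept by filterByExpr (minimum count 10, minimum total 15; 16672 genes) received TMM factors. A single robust edgeR fit (version 4.0.16, R 4.3.3) of the 9 libraries, with 6 residual degrees of freedom, gave quasi-likelihood tests of the 3 contrasts, with Benjamini-Hochberg adjustment over all genes and calls under 0.05. An SE is the size of the log2 fold change over the square root of its F statistic and so approximate. Totals of 40322136 to 50079203 counts make counting error small except for NR4A2, NR4A3, KLF2 and KLF4. Replicates of each group differed by more than sampling noise (chi-square per degree of freedom 2.31 to 16.2).

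All 8 genes were named whatever their result, plus TNFRSF13B, up to 4 called genes of each list by adjusted p in each comparison, of which the text prints a part, and the 3 genes most alike in pattern to each gene tested (average log2 CPM of at least 3). The 8 genes and the lists were chosen with earlier results of these data known, so list counts are descriptions. Same-numbered replicates of TACI short and control deviated together from their group means (r = 0.434, 0.213 and 0.177 for numbers 1, 2 and 3), though replicates 2 and 3 correlated as much across numbers (0.232 and 0.194). Same-numbered pairs with TACI long ranged from -0.272 to 0.113. Blocked values therefore stand beside TACI short against control where they change a call. Settings also tried were DESeq2 1.42.0, its size factors in edgeR, limma-voom (limma 3.58.1), upper-quartile factors, library totals alone, other filters on low counts, the compared groups alone, the replicate block, each library left out, and TACI short with replicate 1 alone. The fit was also run on simulated counts in which a small share of genes changed, in TACI long alone. Those counts lacked the scaling shift and the outlying replicates of TACI short, so that run cannot speak to either. Individual values of some list and marker genes are not reported here.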

Additional observations from a re-analysis of the deposited data

How the results depend on the processing

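The falls of NR4A1, NR4A3, KLF6 and KLF10 in TACI long against control kept their call in all 19 alternatives, with log2 fold changes of -0.49 to -0.45, -1.08 to -0.80, -0.81 to -0.67 and -0.61 to -0.56. Genes called over the whole table stayed within 1.5 times of the reported counts, at 7308 to 9382, 9146 to 11588 and 10000 to 12661 in the 3 comparisons. Between TACI long and control, KLF13 passed at 0.076 with only those groups (adjusted p = 0.0373) and at 0.081 with TACI short replicate 1 as its only library (adjusted p = 0.0296), which gave 1 gene higher.

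Between TACI short and control, NR4A1 no longer passed with DESeq2 (0.13) or without the filter (0.12), and leaving out single libraries gave 0.065 to 0.20. KLF10 passed with upper-quartile factors (0.12, adjusted p = 0.0109) and library totals alone (0.17). Those scalings turned NR4A3 to 0.034 and 0.082 and KLF13 to 0.015 and 0.063, and gave 2 genes higher. KLF6 was -0.14 with TACI short replicate 1 as its only library. Leaving out single libraries gave -0.0031 to 0.17 for KLF6, -0.14 to 0.042 for NR4A3, 1.63 to 2.69 for KLF4 and -0.098 to -0.035 for KLF13, which passed without TACI short replicate 1 (adjusted p = 0.0332); 0 to 1 gene was then higher and 0 to 1 lower. KLF4 passed with DESeq2 (2.18), and was -0.86 with TACI short replicate 1 alone.

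With the replicate block KLF4 passed between TACI short and control at 2.02 on 9 libraries and at 2.08 on the 6 libraries of those groups (adjusted p = 0.000147, a fit chosen after seeing the data), which gave 2 genes higher; the block changed no other call among the 6 genes. In every group, TACI short and control included, the labels give replicates a number alone and state no pairing.

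Between TACI short and TACI long, KLF4 passed with DESeq2 (1.69), ranged from 1.14 to 2.20 when single libraries were left out, and was -1.36 with TACI short replicate 1 alone. That setting also gave 0.61 for NR4A3 (adjusted p = 0.123) and -0.098 for KLF13 (adjusted p = 0.0574). KLF13 was -0.049 with upper-quartile factors and -0.0071 with library totals alone, and in these 3 settings 0 genes were lower. Of the counts of called genes per list, 563 stayed within 1.5 times of the reported count and 75 did not. The cause of these changes was not tested in any setting. KLF2 could not be compared at this depth, and NR4A2 rests on 25 counts or fewer per group.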
